A study of Sus scrofa domesticus with 34 samples.

Results

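A set of 9 genes known from the cerebellum was followed across 34 libraries labelled muscle: CBLN1, CBLN3, EN2, CADPS2, CHN2, CDH15, NRK, TFAP2A and DAO. They are 9 of the 31907 genes counted, were found by symbol and Ensembl identifier, and all 9 passed the expression filter. They had been selected on their levels across these same 34 libraries, together with what is known of them. Their spread and their correlations are therefore given as a description. They were not tested, except for a Dixon check for single libraries, from which no conclusion is drawn. The comparison of the diets was tested.

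The libraries came from 34 pigs, 18 females and 16 castrated males, each on 1 of 4 feeds that differed in vitamin D. In the 25(OH)D group (8 pigs) calcidiol alone was fed, at 2000 IU per kg feed in the grower and 1500 IU in the finisher phase. The combination group (8 pigs) received 2000 and then 1500 IU of cholecalciferol plus 1000 IU of calcidiol in both phases. The increased cholecalciferol group (10 pigs) received 3000 and then 2500 IU, and the standard cholecalciferol group (8 pigs), the control, 2000 and then 1500 IU. All pigs thus received some form of vitamin D. The counts are 3′ end reads per gene, and levels are given in CPM, that is per 1000000 gene counts of the library.

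The cerebellum is built around the granule cell, a small and very abundant excitatory neuron whose axon, the parallel fibre, makes synapses on Purkinje cells. CBLN1 is a secreted protein that granule cells release at these synapses, where it binds neurexin on the axon. TBR1 and FEZF2, the cortex genes set against the members, encode transcription factors of deep layer neurons of the cerebral cortex. Skeletal muscle is not known as a main site of CBLN1, CBLN3, EN2, TBR1 or FEZF2.

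Library depth ran between 1.34 and 30.4 M counts (M, 1000000) with a median of 6.67 M. The deposited files carry running numbers, and depth went with them: the 24 libraries of file numbers 1 to 24 held 4.08 to 13.2 M, the 5 of numbers 25 to 29 held 16.8 to 30.4 M and the 5 of numbers 30 to 34 held 1.34 to 2.69 M. Numbers 30 to 34 comprise 4 combination libraries and 1 of 25(OH)D. Transcripts of brain were present in all libraries beside those of muscle. Of 10 pan-neuronal genes listed, 9 were found by symbol and summed to 4187 to 9879 CPM. Of 18 skeletal muscle genes listed, only 11 were found by symbol, and these summed to 1217 to 7857 CPM. The muscle sum thus leaves out more of its list, and the 2 sums do not give the shares of the tissues. A list of 12 genes of satellite cells and myogenic regulators summed to 754 to 1215 CPM, and 5 of them passed the expression filter. The myogenic regulators PAX7, MYF5, MYOD1 and MYOG, which are on that list and did not pass it, stayed at or under 2.94 CPM. So did the other genes of the list that did not pass. Nearly all of the sum therefore came from the 5 that passed, and it does not stand for these regulators. What in the tissue gave rise to this was not tested.

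CBLN1 (ENSSSCG00000040652) was detected in all 34 libraries and spanned 118 to 1172 CPM, a 9.93-fold range around a median of 248 CPM. The lowest library was increased cholecalciferol replicate 6 and the highest standard cholecalciferol replicate 6. Sorted, the libraries fell into 21 at 118 to 301 CPM and 13 at 427 to 1172 CPM. With TMM scaling, edgeR's correction for library composition, this step was 0.47 on the log2 scale, or 16.3% of the log2 range of the gene. For comparison, the widest step that leaves at least 5 libraries on each side has a median of 7.78% of the range over all 13974 genes tested.

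CBLN3 (ENSSSCG00000001985), a cerebellin relative that in mice needs CBLN1 for its secretion, ran between 88.7 and 1146 CPM with a median of 186 CPM. Its widest step, 0.62 on the log2 scale and 18.2% of its range, again set 21 libraries apart from 13. CBLN3 tracked CBLN1 with a Pearson r of 0.98 and a Spearman rho of 0.96, and its log2 level changed by 0.98 ± 0.04 (SE, 34 libraries) per log2 unit of CBLN1. The ratio of CBLN3 to CBLN1 reads was 0.761 at the median and held between 0.519, in standard cholecalciferol replicate 6, and 1.09, in standard cholecalciferol replicate 1. The 2 genes thus stayed close to 1 proportion while each of them spanned a much wider range.

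EN2 (ENSSSCG00000035324), a homeobox factor that marks the embryonic midbrain and hindbrain border and later the cerebellum, spanned 4.73 to 89.7 CPM (median 13.3). Its widest step, 13.6% of its range, also lay between 21 and 13 libraries. EN2 was highest in increased cholecalciferol replicate 1 and lowest in 25(OH)D replicate 6. Its slope on CBLN1 was 1.11 ± 0.07 (SE, log2 scale), with a Pearson r of 0.95.

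CADPS2 (ENSSSCG00000016611), which primes dense core vesicles and in mouse granule cells promotes the release of neurotrophins, had the narrowest span of the members. It ran between 53.7 and 242 CPM with a median of 89.8 CPM. Its slope on CBLN1 was 0.56 ± 0.04 (SE), so CADPS2 changed less than CBLN1 on the log2 scale although both levels were correlated with r 0.93. The widest step of CADPS2 set only 6 libraries above 28, between 167 and 212 CPM.

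CHN2 (ENSSSCG00000016687) encodes beta-chimaerin, which switches off the small GTPase Rac. It ran between 44.9 and 771 CPM with a median of 147 CPM, and its widest step, 15.0% of its range, parted 21 libraries and 13. The slope of CHN2 on CBLN1 was 1.00 ± 0.05 (SE), with r 0.97. A single library stood off this line: 25(OH)D replicate 3 had 44.9 CPM of CHN2 and lay 0.87 log2 units under it.

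CDH15 (ENSSSCG00000002642), or M-cadherin, joins myoblasts and satellite cells in muscle and is also made by mouse granule cells, so it is the member with a known place in muscle. It ran between 2.26 and 46.7 CPM with a median of 9.63 CPM. It followed CBLN1 with r 0.94 and a slope of 0.92 ± 0.06 (SE). Against 11 skeletal muscle genes the median r of CDH15 was 0.15, and none of the 11 passed 0.7. Against 8 catenins and cadherins listed as its partners, its median r was −0.48.

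NRK (ENSSSCG00000012546), a kinase of the germinal center kinase group known from the mouse placenta, had the widest spread of the 9 members on the log2 scale. It ran between 4.34 and 196 CPM with a median of 27.6 CPM, and its log2 SD was 1.22 where the median gene had 0.49. Its slope on CBLN1 was 1.21 ± 0.10 (SE), with r 0.91. NRK sat far above this line in combination replicate 3, by 1.54 log2 units, and far below it in 25(OH)D replicate 3, by −1.41.

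TFAP2A (ENSSSCG00000001036), the transcription factor AP-2 alpha, acts in neural crest and in mouse cerebellar interneuron precursors. It was the least abundant member, at 0.174 to 15.8 CPM with a median of 2.96 CPM. The lowest value, in standard cholecalciferol replicate 3, is a single read, and its exact Poisson interval of 95% reaches 0.970 CPM (intervals cover counting error only). TFAP2A scattered most around CBLN1, with a residual SD of 0.65 log2 units. Counting error of the ratio to CBLN1, reckoned from the reads without the prior count, would give an SD of about 0.42. The 2 SDs are on unlike scales, so 0.42 is not a share of 0.65.

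DAO (ENSSSCG00000009942), the peroxisomal D-amino acid oxidase that degrades D-serine and is known from kidney, liver and the glia of the cerebellum, spanned 19.6 to 123 CPM (median 37.1). Its slope on CBLN1 was 0.64 ± 0.05 (SE), with r 0.90. DAO and CADPS2 were thus the 2 members whose log2 slope on CBLN1 lay well under 1. With 9 tested genes listed for liver and kidney, DAO had a median r of −0.20. The single values ran between −0.75 and 0.90, with 1 over 0.7 and 1 under −0.7.

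**Figure D1:**
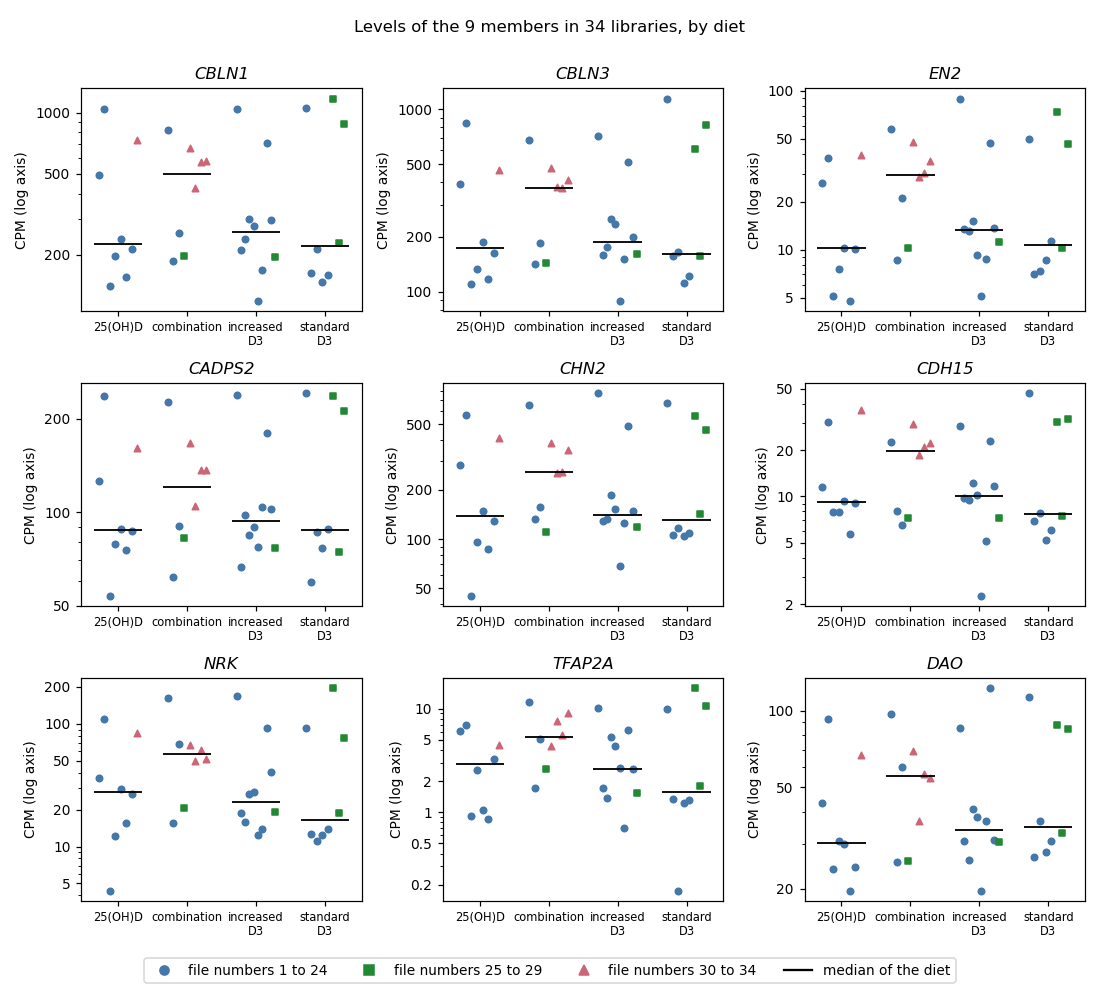
Level of each of the 9 genes in CPM (vertical log axis) in every library, by diet, with symbols for the running file number and a line at the median of the diet; D3 stands for cholecalciferol. Within each of the 4 diets, CBLN1 was as low as 186 CPM or less and as high as 819 CPM or more, and the diets overlapped for every gene.

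Whether the genes had 2 states or a graded level had no single answer. For CBLN1, CBLN3, EN2 and CHN2 the step parted the same 13 libraries from the rest. The 13 highest libraries shared 12 with those of CBLN1 for CADPS2, CDH15, NRK and DAO, and 11 for TFAP2A. Of all libraries, 9 were among the upper 13 for all 9 members, 18 for none, and the other 7 for some. Sarle's bimodality coefficient, which grows as values part into 2 groups, was 0.62 for CBLN1, 0.58 for CADPS2, 0.57 for CBLN3, 0.55 for DAO, 0.55 for EN2, 0.50 for CHN2, 0.42 for NRK, 0.38 for TFAP2A and 0.36 for CDH15, with a median of 0.38 over all genes. This order differs from that of the steps: CDH15 had a step of 15.0% with a low coefficient, and DAO a step of 9.90% with a high one.

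The upper side was itself spread out. Among the 13 libraries CBLN1 ran over 427 to 1172 CPM, and the 5 libraries of file numbers 30 to 34 filled its middle and lower part, at 427 to 732 CPM. Of the file numbers, 6 of 24 libraries of 1 to 24, 2 of 5 of 25 to 29 and 5 of 5 of 30 to 34 lay on the upper side. Without numbers 30 to 34 the median step over the 9 members was 20.0% of the range, against 15.0% with them. Fewer libraries can widen the steps of any gene, and the median of 7.78% over all genes is for 34 libraries. NRK, TFAP2A and DAO showed no step beyond 10% of their range with at least 5 libraries on each side.

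By diet, the upper side held 3 of 8 libraries of 25(OH)D, 5 of 8 of combination, 2 of 10 of increased cholecalciferol and 3 of 8 of standard cholecalciferol. Of the 5 combination libraries there, 4 were of file numbers 30 to 34. By sex it held 8 of 18 females and 5 of 16 castrated males.

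**Figure D2:**
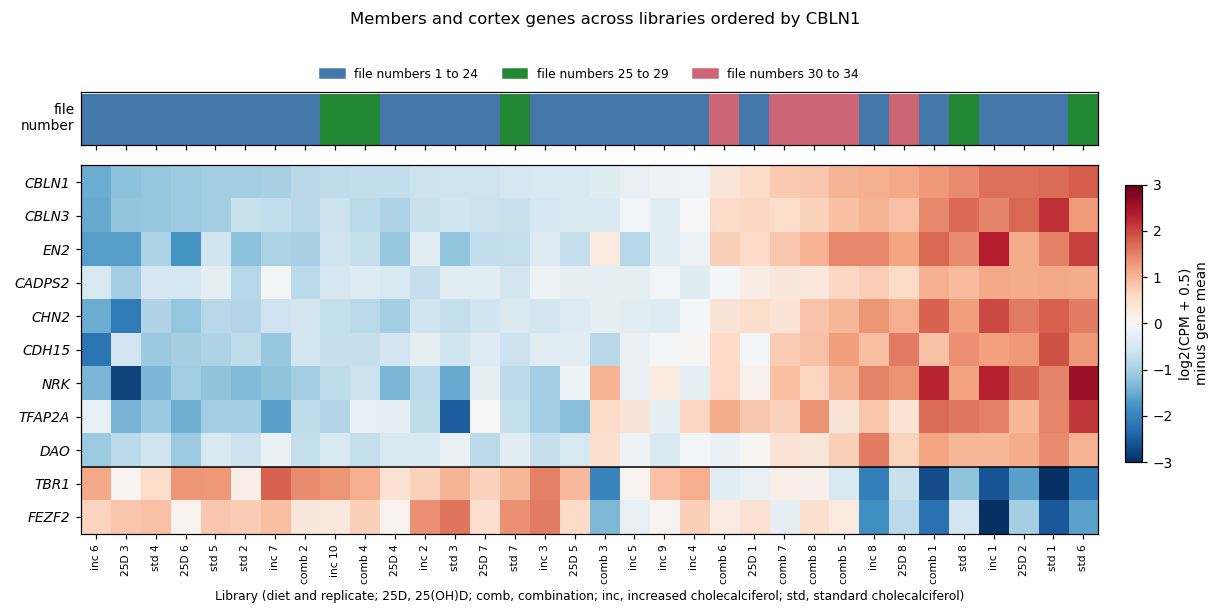
Each gene (rows) in the 34 libraries (columns, ordered by CBLN1 from low to high) as log2(CPM + 0.5) minus the gene's mean, in colour, with the running file number in the strip above. The 9 members turn from blue to red together towards the right, while TBR1 and FEZF2 are lowest among the columns at the right and in combination replicate 3.

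The 36 pairs of members were correlated over the 34 libraries with a median Pearson r of 0.89, between 0.71 for CDH15 with TFAP2A and 0.98 for CBLN1 with CBLN3. The median Spearman rho was 0.83, between 0.67 and 0.96. Leaving out the 2 libraries farthest from the median of the first gene gave a median r of 0.88 and a lowest r of 0.72. Within file numbers 1 to 24 the median r was 0.88, between 0.65 and 0.99, and after removing diet and sex means it was 0.91. Over the 13973 other genes the median r with CBLN1 was 0.00. All libraries share the sum to which reads are scaled. Because TMM centres most genes between libraries, this median does not show how far the shared sum affects the correlations of the members.

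Because part of the members fall into 2 sets of libraries, r was also taken inside each. In the upper 13 libraries the median r of the 36 pairs was 0.68, between 0.08 and 0.96. In the lower 21 it was 0.42, between −0.13 and 0.91. CBLN1 and CBLN3 kept an r of 0.83 in the upper and 0.91 in the lower set. CADPS2 and CBLN1 had an r of 0.96 in the upper set and 0.16 in the lower, so the pooled r of CADPS2 rests on the upper libraries and on the step between the sets. CBLN1 with CDH15 had 0.69 and 0.80, and CBLN1 with TFAP2A 0.47 and 0.40.

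**Figure D3:**
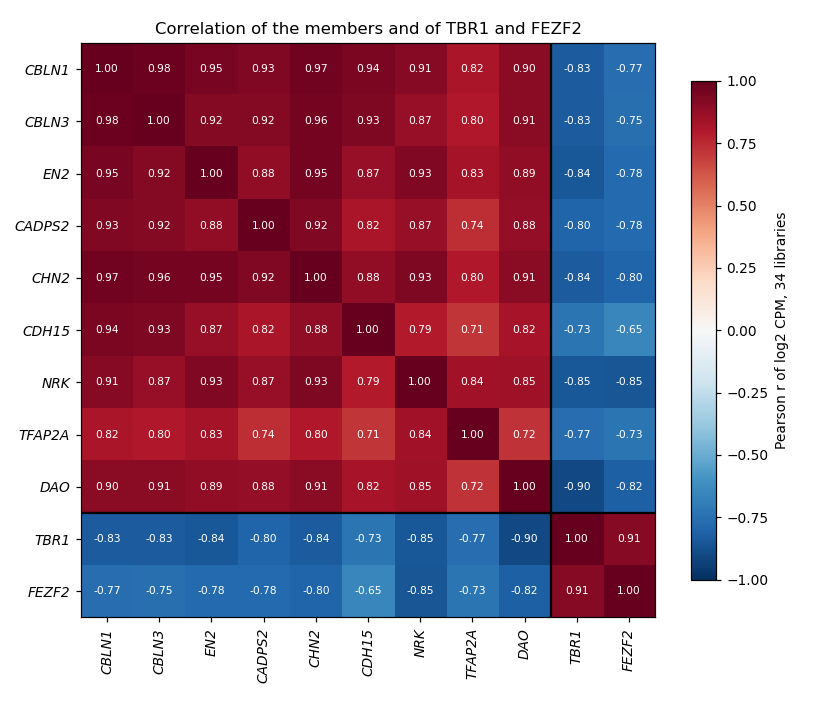
Pearson r of log2 CPM over 34 libraries for each pair of the 9 members and of TBR1 and FEZF2, written in each cell and shown in colour (red positive, blue negative). The 36 member pairs run over 0.71 to 0.98, and the 18 pairs with a cortex gene over −0.90 to −0.65.

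TBR1 (ENSSSCG00000015891) spanned 1.74 to 62.9 CPM with a median of 22.9 CPM, and FEZF2 (ENSSSCG00000011487) 0.152 to 17.8 CPM with a median of 7.03 CPM. The lowest FEZF2 value, in increased cholecalciferol replicate 1, stands for 2 reads. Both moved against the members. Over the 18 pairs of a member with TBR1 or FEZF2 the median r was −0.80, with DAO and TBR1 at −0.90 and CDH15 and FEZF2 at −0.65 as the ends, and the median rho was −0.76. Without the 2 farthest libraries the median r was −0.76, and within file numbers 1 to 24 it was −0.84. TBR1 and FEZF2 correlated with each other at r 0.91.

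CBLN1 and TBR1 were both present in every library. CBLN1 minus TBR1 was 1.41 to 8.94 on the log2 scale of TMM-scaled CPM, and its ranges in the 4 diets overlapped. Of the 13 libraries highest in CBLN1, 12 were among the 13 lowest in TBR1 and 10 among the 13 lowest in FEZF2. The slope of TBR1 on CBLN1 was −1.34 ± 0.16 (SE) and that of FEZF2 −1.10 ± 0.16 (SE). In the upper 13 libraries the median r of the 18 pairs was −0.75. In the lower 21 it was −0.26, between −0.68 and 0.18, so the pooled relation rests on the upper libraries and on the step between the sets.

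The library combination replicate 3 went against this order. It held 257 CPM of CBLN1, the 19th highest level after TMM scaling, but 4.19 CPM of TBR1 and 1.86 CPM of FEZF2, which are 2.89 and 2.13 log2 units under the levels fitted from CBLN1. EN2 at 21.2 CPM, NRK at 68.3 CPM and DAO at 60.3 CPM were high for its CBLN1. The same library had the highest sum over 18 HOX genes, which mark hindbrain and spinal cord, at 30.3 CPM from 130 reads, against 16.6 CPM in the next library. It also ranked highest for the midbrain and hindbrain list and for the choroid plexus list, which share the gene OTX2. For the cortex list it ranked 28th. Without it the median r with TBR1 and FEZF2 was −0.84 over 33 libraries, an alternative chosen after seeing the data.

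**Figure D4:**
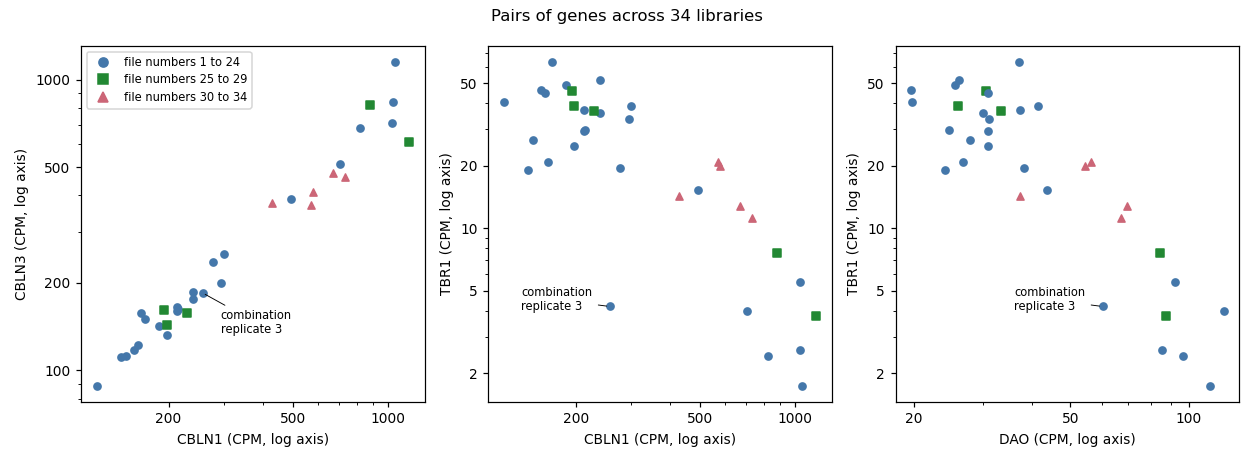
CBLN3 against CBLN1, TBR1 against CBLN1 and TBR1 against DAO in CPM (both axes log) in 34 libraries, with symbols for the running file number. CBLN3 rises with CBLN1 along 1 line, TBR1 falls across both axes, and combination replicate 3, marked, lies at 257 CPM of CBLN1 and 4.19 CPM of TBR1.

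Likeness to each member was ranked by Pearson r of log2 CPM over the 34 libraries. Next to CBLN3 and CHN2, the genes most like CBLN1 were DOC2B, CRTAM, NEUROD1, GRM4, IL16, TIAM1, JAML and ARHGAP26, at r 0.96 to 0.97. NEUROD1, a transcription factor of granule cells, spanned 44.3 to 620 CPM. GRM4, the metabotropic glutamate receptor of parallel fibre endings, spanned 88.9 to 1284 CPM. TIAM1, an activator of Rac, spanned 296 to 2002 CPM. Of the 13973 other genes, 115 (0.823%) had an r over 0.9 with CBLN1 and 737 (5.27%) over 0.7, while 765 (5.47%) were under −0.7.

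Most opposite to CBLN1 were PRICKLE1 at r −0.94, CBLN2 at −0.93 and ABR, RASSF2 and FGL2 at −0.92. CBLN2, a cerebellin of the cerebral cortex and other forebrain regions, ran between 0.671 and 29.2 CPM. These 2 cerebellins went opposite ways over the libraries.

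Of the genes nearest to the other members, COL27A1, AP1S2 and ZIC4 were closest to EN2 (r 0.96 to 0.97), and CNR1 and ETV1 were among those closest to CADPS2 (r 0.94). NEUROD1, ETV1 and ZIC4 were closest to CHN2 (r 0.97 to 0.98), and GRM4 and DOC2B, after which came CBLN1, to CBLN3 (r 0.98). TSPAN9, GRM4 and IL16 were closest to CDH15 (r 0.94 to 0.95), and ZIC2, ZIC4 and FGFR1 to NRK (r 0.95 to 0.98). KLHDC8A, ZIC5 and LURAP1L were closest to TFAP2A (r 0.84 to 0.86), and TIMP4, RELN and RGS8 to DAO (r 0.92 to 0.93). RELN encodes reelin, which granule cells secrete, and the ZIC genes are transcription factors of granule cells and their precursors.

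Of 22 genes listed for granule cells, 17 passed the expression filter, and 12 of these had an r over 0.7 with CBLN1 and none under −0.7, with a median of 0.88. Over all genes the share above 0.7 was 5.27%. BARHL2, at 1.05 to 68.8 CPM, had r 0.88, and ZIC1, at 17.7 to 381 CPM, had r 0.92. GABRA6, the GABA receptor subunit that defines mature granule cells, was low at 0.215 to 11.5 CPM, with r 0.79. ATOH1, the factor of granule cell precursors, had no read in any library.

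The list of CBLN1 receptors and relatives had a median r of −0.07 with CBLN1. Of its 6 tested genes, 2 were over 0.7 and 1 was under −0.7. The neurexin gene NRXN3 spanned 33.8 to 194 CPM with r 0.71 to CBLN1. CBLN4, a cerebellin relative on this list, had r −0.67. Purkinje cell genes followed CBLN1 about as closely as those of granule cells. Of the Purkinje cell genes 9 of 11 tested had an r over 0.7, with a median of 0.87 and a lowest r of 0.36. For the granule cell list these were 12 of 17, 0.88 and −0.10. CALB1 ran between 19.3 and 371 CPM with r 0.93, and CA8 between 24.7 and 380 CPM with r 0.96. The members therefore moved with the genes of both neurons of the parallel fibre synapse.

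In the list of other cerebellar cells, 3 of 7 tested genes had an r over 0.7 with CBLN1 and 1 under −0.7, with a median of 0.08. TFAP2B, a relative of TFAP2A in inhibitory interneuron precursors, had r 0.89, and EOMES, of unipolar brush cells, 0.87. GDF10, of Bergmann glia, had r 0.08. Of 4 tested midbrain and hindbrain genes, MEIS1 had r 0.94, OTX2 0.81, IRX1 0.57 and EN1, the relative of EN2, 0.25.

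Of 13 tested cortex genes, 10 had an r under −0.7 with CBLN1, with a median of −0.77 over the list. LHX2, at 4.56 to 138 CPM, had r −0.84, and NEUROD6, at 0.149 to 24.2 CPM, had r −0.75. NEUROD2 alone was over 0.7, at r 0.76. It was named after its value was seen, and NEUROD2 is known from granule cells as well as from cortex.

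The pathways around single members did not follow them as wholes. None of 9 genes listed with CHN2 had an r over 0.7 with CHN2 and 2 were under −0.7, with a median of −0.56. This was not particular to CHN2: over the 9 members the median with this list ran between −0.58 (CDH15) and −0.46 (TFAP2A). The single genes named here are given against CBLN1 instead. The CHN2 relative CHN1 and EPHA4 had r −0.86 and −0.87 with CBLN1. Of 12 genes of D-amino acid metabolism and its receptors, none had an r over 0.7 with DAO and 3 were under −0.7, with a median of −0.50. Here too the other members were alike, with medians between −0.52 (CHN2) and −0.40 (TFAP2A). PHGDH, which starts the synthesis of serine, had r −0.90 with CBLN1. Of 9 genes of dense core vesicles, 2 had an r over 0.7 and 2 under −0.7 with CADPS2, and the same counts held for EN2. NTF3, a neurotrophin, ran between 0.452 and 12.7 CPM with r 0.79 to CBLN1, and CHGA between 18.5 and 203 CPM with r −0.89.

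The diets were then compared, which is the question of the study. None of the 9 members passed the test between any 2 diets, and for each member the ranges of the 4 diets overlapped. In these bulk libraries fewer cells of a type and less RNA per cell cannot be told apart.

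CBLN1 had a lowest, median and highest level of 141, 227 and 1037 CPM in the 25(OH)D group, of 186, 499 and 819 CPM in the combination group, of 118, 258 and 1035 CPM in the increased group and of 147, 221 and 1172 CPM in the standard group. All 4 ranges overlapped, and each diet held both high and low libraries. The higher median of the combination group went with file numbers 30 to 34, whose 4 combination libraries ran over 427 to 670 CPM. The 3 combination libraries of file numbers 1 to 24 had 819, 186 and 257 CPM.

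CBLN3 repeated this picture, at 111, 174 and 840 CPM with 25(OH)D, 142, 373 and 683 CPM with the combination, 88.7, 187 and 710 CPM with increased and 112, 162 and 1146 CPM with standard cholecalciferol. EN2 had 4.73, 10.2 and 39.5 CPM with 25(OH)D, 8.57, 29.5 and 57.6 CPM with the combination, 5.13, 13.3 and 89.7 CPM with increased and 7.08, 10.8 and 73.2 CPM with standard cholecalciferol. CHN2 had 44.9, 138 and 568.1 CPM with 25(OH)D, 111, 255 and 659 CPM with the combination, 68.8, 140 and 771 CPM with increased and 104, 130 and 669 CPM with standard cholecalciferol. In each of these genes the groups overlapped, and the combination group had the highest median.

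NRK had 4.34, 28.04 and 110 CPM with 25(OH)D, 15.7, 56.4 and 162 CPM with the combination, 12.3, 23.1 and 168 CPM with increased and 11.1, 16.4 and 196 CPM with standard cholecalciferol. DAO had 19.6, 30.4 and 92.4 CPM with 25(OH)D, 25.5, 55.5 and 96.7 CPM with the combination, 19.7, 34.05 and 123 CPM with increased and 26.7, 35.1 and 113 CPM with standard cholecalciferol. The medians of CADPS2, CDH15 and TFAP2A were also highest in the combination group, at 121, 19.7 and 5.35 CPM, and every range overlapped the others.

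In edgeR's quasi-likelihood test of diet with sex as a covariate over all 34 libraries, 25(OH)D against standard cholecalciferol called 0 of the 9 members after Benjamini-Hochberg adjustment, as of all 13974 genes (0%). At an unadjusted p under 0.05 it called 0 of 9, where 3.23% of all genes passed. CBLN1 had a log2 fold change of −0.25 ± 0.44 (SE), with a 95% interval of −1.14 to 0.63. The 9 fold changes ran over −0.60 to −0.17 with a median of −0.35, while the median over all genes was −0.01. Within file numbers 1 to 24, 4 of 9 were above 0, with a median of −0.09. The members are correlated, so their 9 signs are not 9 independent observations.

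For the combination against standard cholecalciferol, edgeR called 0 of 9 members and 0% of all genes after adjustment, and 0 of 9 and 4.34% unadjusted. CBLN1 differed by −0.05 ± 0.44 (SE) on the log2 scale, with an interval of −0.93 to 0.84. NRK differed most, by 0.41 ± 0.58 (SE). The median of the members was −0.05. Within file numbers 1 to 24, with 3 combination and 5 standard libraries, 8 of 9 were above 0. Their median there was 0.37 and the highest 1.83. In that subset edgeR called 0 of 9 members after adjustment. Unadjusted it called 1 of 9, beside 1536 of all 14915 genes.

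For increased against standard cholecalciferol, edgeR called 0 of 9 and 0% after adjustment, and 0 of 9 and 7.77% unadjusted. All 9 fold changes were negative, at −0.65 to −0.26 with a median of −0.32. Within file numbers 1 to 24 this direction did not hold, with 5 of 9 above 0 and a median of 0.05. CBLN3 had the smallest p of any member in any diet comparison (log2 fold change −0.65 ± 0.42 SE, unadjusted p 0.126, adjusted p 0.686). These 3 comparisons share the 8 standard libraries, 3 of which were on the upper side of CBLN1, so they are not separate evidence.

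Between the supplemented diets nothing passed the test either. For combination against increased cholecalciferol edgeR called 0 of 9 and 0% after adjustment, and 0 of 9 and 4.14% unadjusted. CBLN1 differed by 0.46 ± 0.41 (SE), and the 9 fold changes ran over 0.23 to 0.72, with TFAP2A highest at 0.72 ± 0.55 (SE). With the file-number run as a further term the median of the 9 was 0.17, against 0.46 without that term.

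For 25(OH)D against increased cholecalciferol it called 0 of 9 and 0% after adjustment, and 0 of 9 and 12% unadjusted, with fold changes over −0.29 to 0.31. CBLN1 differed by 0.26 ± 0.41 (SE). For 25(OH)D against the combination it called 0 of 9 and 0% after adjustment, and 0 of 9 and 7.57% unadjusted, with fold changes over −0.80 to −0.10. NRK differed by −0.80 ± 0.59 (SE), and CBLN1 by −0.21 ± 0.44 (SE). DESeq2 and limma-voom also called 0 of 9 members in each of these 6 comparisons.

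The intervals show what these groups could resolve. For CADPS2, the least variable member, 25(OH)D against standard cholecalciferol had an interval of −0.72 to 0.37 on the log2 scale, and for TFAP2A it was −1.75 to 0.55. The standard errors of the members were 0.27 to 0.57 in that comparison, where the median gene had 0.24. The biological coefficient of variation between libraries was 0.37 for CADPS2, 0.59 for CBLN1 and 0.75 for NRK, with a median of 0.32 over all genes. A p over the threshold does not show that the diets act alike on these genes.

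**Figure D5:**
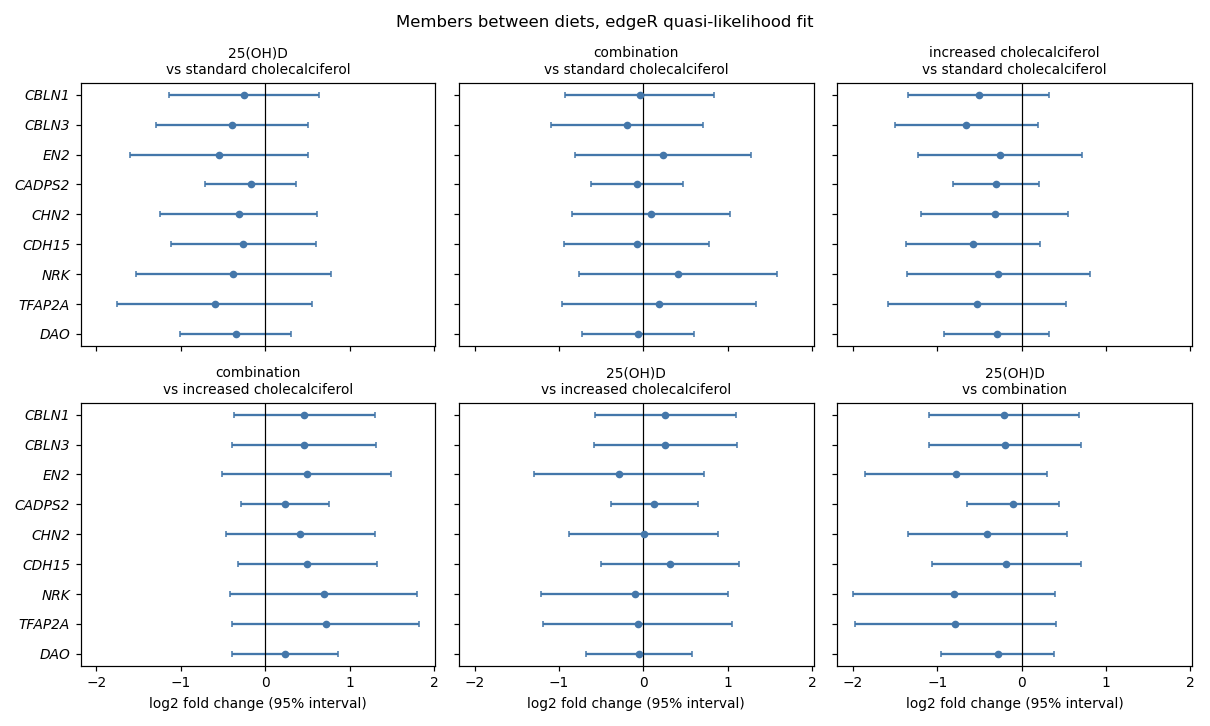
log2 fold change (horizontal axis) with its 95% interval for the 9 members in the 6 comparisons between diets, from the edgeR fit over 34 libraries. Every interval includes 0. The 9 genes lie on 1 side of 0 in 4 panels and on both sides for combination against standard and for 25(OH)D against increased cholecalciferol.

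The sexes were compared in the same fit. Female against castrated male pigs gave 0 of 9 members called and 0.0787% of all genes after Benjamini-Hochberg adjustment in edgeR, and 0 of 9 and 6.58% unadjusted. CBLN1 had 118, 286 and 1172 CPM as lowest, median and highest level in 18 females and 141, 221 and 878 CPM in 16 castrated males, which overlap over most of their ranges. Its fold change was 0.39 ± 0.30 (SE), and all 9 members were on the positive side, at 0.05 to 0.59. The interaction of sex and diet called 0 of 9 members and 0% of all genes, and 0 of 9 and 2.75% unadjusted, with the smallest member p at 0.271 for NRK.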

How the data were processed

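The deposited files hold raw read counts per gene, 1 file per library, for 31907 Ensembl identifiers. Per the labels' protocols, RNA was taken from frozen tissue in Trizol, and the QuantSeq forward kit, which reads 3′ ends, made the libraries. FastQC, TopHat, HTSeq and DESeq2 are named per the submitters' processing notes. Tool versions, genome build, annotation and whether strand was used were not given in the sources used here. Symbols came from a table that matched 15029 identifiers. The HTSeq categories at the end of each file (16.4 to 29.9% of reads outside features) were left out of totals and tests. Members and gene lists were chosen with earlier results of these data known.

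Diet and sex came from the labels. Replicates were numbered by accession, which pairs no samples. The series counts individuals per diet, with 1 library per pig, so the tests set diet differences against the spread between libraries. That spread holds differences between animals and any between pieces of tissue or file-number runs. edgeR 4.0.16 in R 4.3.3 (quasi-likelihood, TMM, expression filter with a minimum count of 10, diet and sex, 34 libraries) tested 13974 genes, 11134 with a symbol, with Benjamini-Hochberg adjustment and a threshold of 0.05. DESeq2 1.42.0 and limma 3.58.1 were alternatives. Printed levels are CPM on total gene counts. Correlations, slopes and steps used log2 CPM with TMM and a prior count of 3. Permutation p-values of the correlations are not printed, because the same levels chose the members. Scripts were tested on simulated counts.

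Named genes are the 9 members, TBR1 and FEZF2, the 10 genes most like and the 5 most opposite to CBLN1, the 3 most like each other member, and up to 4 of widest range from each list. The lists cover granule, Purkinje and other cerebellar cells, cerebellin receptors, midbrain and hindbrain, cortex, HOX genes, oligodendrocytes, astrocytes, neurons, choroid plexus, muscle, satellite cells, liver and kidney, and the pathways of CDH15, DAO, CHN2 and CADPS2. Some named genes outside these were chosen after their values were seen: ATOH1, PAX7, MYF5, MYOD1, MYOG, NEUROD2, PHGDH, STMN2 and SERPINA1. Some genes that this rule names are not reported here.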

Additional observations from a re-analysis of the deposited data

How the results depend on the processing

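No member passed an adjusted p of 0.05 in any diet comparison under any alternative (smallest 0.432) or with any 1 library left out (smallest 0.490). The smallest unadjusted p under an alternative was 0.0495, in edgeR for the combination against standard within file numbers 1 to 24. With a library left out it was 0.0393, in edgeR for CBLN3 in increased against standard. With so wide a spread between libraries, moderate differences could not be resolved. The count of all genes called for combination against increased cholecalciferol was 0, but 1 with the file-number run as a term, 2 within file numbers 1 to 24 and 1 without numbers 30 to 34. For 25(OH)D against the combination it was 0, but 8 within numbers 1 to 24 and 2 without numbers 30 to 34. For female against castrated male it was 11, but 18 with the run as a term. None of these were members, and the cause was not tested. The median step of the members was 15.0% of the range, but 20.0% without numbers 30 to 34, where fewer libraries can widen the step of any gene. The median correlations kept their direction under every alternative listed.

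Of 594 member fold changes under alternatives, 28 changed sign, 14 of them within file numbers 1 to 24 (log2 values follow). Within numbers 1 to 24, 25(OH)D against standard cholecalciferol gave CBLN1 0.14, CADPS2 0.042, NRK 0.36 and TFAP2A 0.20, the combination against standard gave CBLN1 0.37, CBLN3 0.12, CADPS2 0.22 and DAO 0.21, and increased against standard gave CBLN1 0.051, EN2 0.43, CHN2 0.094, NRK 0.68 and TFAP2A 0.41. There, 25(OH)D against increased gave CHN2 −0.18. With the run as a term, NRK was 0.073 for 25(OH)D against standard and 0.13 for increased against standard, CHN2 was −0.020 for the combination against standard and −0.041 for 25(OH)D against increased, CDH15 was −0.067 for the combination against increased and 0.23 for 25(OH)D against the combination, and CBLN1 was 0.043 for the last. Without numbers 30 to 34, CHN2 was −0.12 for 25(OH)D against increased and CDH15 0.10 for 25(OH)D against the combination. limma-voom gave CBLN1 0.13 and CBLN3 0.026 for the combination against standard, and CHN2 −0.026 for 25(OH)D against increased. For that comparison CHN2 was −0.11 without TMM and −0.022 without the expression filter.

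Leaving out 1 library at a time turned the sign of 24 fold changes, all uncalled. For 25(OH)D against standard the range was −0.45 to 0.051 for CDH15 and −0.73 to 0.13 for NRK. For the combination against standard it was −0.25 to 0.23 for CBLN1, −0.44 to 0.17 for CBLN3, −0.033 to 0.53 for EN2, −0.27 to 0.10 for CADPS2, −0.24 to 0.33 for CHN2, −0.20 to 0.22 for CDH15, −0.046 to 0.85 for NRK, −0.048 to 0.57 for TFAP2A and −0.24 to 0.14 for DAO. For increased against standard it was −0.78 to 0.042 for EN2 and −0.74 to 0.22 for NRK. For 25(OH)D against increased it was −0.039 to 0.54 for CBLN1, −0.10 to 0.51 for CBLN3, −0.52 to 0.22 for EN2, −0.063 to 0.27 for CADPS2, −0.30 to 0.39 for CHN2, −0.46 to 0.36 for NRK, −0.35 to 0.22 for TFAP2A and −0.32 to 0.20 for DAO. For 25(OH)D against the combination it was −0.48 to 0.0019 for CBLN1, −0.54 to 0.052 for CBLN3 and −0.27 to 0.10 for CADPS2.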

Other observations

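Other lists were set against CBLN1 in the same way, as values without a test. Of 9 tested oligodendrocyte genes none had an r over 0.7 or under −0.7, with a median of −0.52. Of 7 tested astrocyte genes none was over 0.7 and 1, GJA1, was under −0.7, with a median of −0.33. The 9 pan-neuronal genes had a median r of 0.08, with RBFOX3, a nuclear protein abundant in granule cells, at 0.71 and STMN2 at 0.71. The 11 skeletal muscle genes had a median of 0.14 and none beyond 0.7 on either side, and CKM, the muscle creatine kinase, spanned 41.1 to 781 CPM. Of 5 tested genes of satellite cells 1 was under −0.7, with a median of −0.59, and the 2 tested HOX genes had r 0.15 and 0.42. Of 4 tested choroid plexus genes 1 was over 0.7, at r 0.81, with a median of 0.34. OTX2 is on this list as well as on that of midbrain and hindbrain. TTR, a carrier protein of choroid plexus, spanned 1.84 to 147 CPM.

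In the liver and kidney list the median r with CBLN1 was −0.01 over 9 tested genes. SERPINA1, a protease inhibitor known from liver, stood apart in it at r 0.93 and spanned 2.20 to 27.5 CPM, while ALB had r −0.10 over 12.8 to 818 CPM. No Dixon test over the 9 members, TBR1 and FEZF2 in the 4 diets (44 groups) set a library apart. Each diet held 2 to 5 libraries on the upper side of CBLN1, and several high values can hide one another in this test. No conclusion is drawn from it.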
